A study of Drosophila melanogaster with 3 samples.

Results

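The 5 genes described here, Hsp26, Hsp27, Hsp68, l(2)efl and Hsc70-4, encode molecular chaperones of the fruit fly. They were chosen by name, with their values on these arrays already known, from 11982 genes that had a probe set of their own in the platform's annotation. Total RNA came from OSS cells, a stable somatic line of the Drosophila melanogaster ovary that the labels trace to follicular stem cells. All 3 arrays (replicates 1, 2 and 3) belonged to 1 group of untreated, exponentially growing cells in M3 medium with serum, insulin, glutathione and fly extract, and there was no heated or otherwise stressed sample. Whether the 3 samples were separate cultures is not stated in the labels, so an SD here may reflect technical variation alone.

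Heat shock proteins hold unfolded proteins in solution and help them to refold. Genes such as Hsp26, Hsp27, Hsp68 and the Hsp70 copies are switched on in flies by heat and other protein-damaging stress through the transcription factor Hsf, whereas the heat shock cognate gene Hsc70-4 is transcribed without stress. Small heat shock proteins share an alpha-crystallin domain and bind unfolded proteins without using ATP. HSP70 proteins use ATP and work with J-domain co-chaperones and nucleotide exchange factors. In flies the HSP70 and HSP90 machinery also loads small RNAs into Argonaute proteins. Some small heat shock genes, Hsp26 and Hsp27 among them, are also known to be transcribed in the ovary without heat.

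Levels are given on the log2 scale as deposited, 1 value per probe set and array, and the lowest value of the table, 2.39, was shared by all 3 arrays. As background served a level of 2.49, which is the 95th percentile of the means of 112 odorant and gustatory receptor genes, taken as not used in these cells. A stricter level stood 1 log2 unit higher, at 3.49. Pearson correlations between arrays were 0.986 to 0.995 across 18952 probe sets, of which 67.2% were identical on all 3 arrays, so an SD at or near 0 understates the error. Of 4 pairs of control probe sets for the 5′ and 3′ ends of fly transcripts, all had their lowest 5′ minus 3′ difference on replicate 3. For eIF-4a that difference was -1.31, -1.14 and -2.31 log2 units on replicates 1, 2 and 3, for Act5C -0.011, 0.20 and -0.72, for the actin pair 1.66, 1.86 and 0.94, and for GAPDH -0.72, -0.42 and -0.78. The part of RNA integrity in the array differences given below was not tested. Of 8 genes listed as ovarian somatic markers 7 were above background, namely tj, zfh1, Egfr, piwi, fs(1)Yb, dom and gro. The remaining gene, shg, was below it at 2.40. How particular each of them is to ovarian somatic cells was not tested. All 8 germline markers were below it, with vas, nanos and bam at the lowest value. Among all genes outside the receptor list, 47.0% were above background and 49.6% below it. Of 6 hemocyte markers 2 were above background, Pxn at 4.43 ± 0.27 and crq at 3.54 ± 0.062 (SD, n = 3), while Hml and eater lay at the lowest value. All 5 fat body and gut markers were below background.

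The stress-inducible small heat shock gene Hsp26 had values of 11.75, 10.48 and 9.52 on replicates 1, 2 and 3. It was far above the background level on each array, and replicate 1 exceeded replicate 3 by 2.23 log2 units. Its mean was 10.58 ± 1.12 (SD, n = 3), 8.09 log2 units above background. Hsp27, the second inducible small heat shock gene, measured 7.20, 6.34 and 5.97 on replicates 1, 2 and 3. The highest array was again replicate 1 and the lowest replicate 3, with 1.23 log2 units between them and a mean of 6.50 ± 0.63 (SD, n = 3).

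Hsp68, an inducible gene of the HSP70 family, measured 5.45 on replicate 1, 4.65 on replicate 2 and 3.13 on replicate 3. Its mean was 4.41 ± 1.18 (SD, n = 3), and it spanned 2.32 log2 units. On replicate 3 it lay under the stricter level, and on the other arrays above it. Of the 5 genes, Hsp68 was the one that limma did not resolve from background. Without replicate 3 it was called above background with a mean of 5.05, and the means of Hsp26 and Hsp27 were 11.11 and 6.77. Without replicate 1 it was not called and had a mean of 3.89, and those of Hsp26 and Hsp27 were 10.00 and 6.16.

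The constitutive member Hsc70-4 and the small heat shock gene l(2)efl varied less between arrays. Hsc70-4, the main cytosolic HSP70 of unstressed fly cells, known for uncoating clathrin vesicles, measured 11.93, 11.41 and 11.39 on replicates 1, 2 and 3. Replicates 2 and 3 were nearly equal and replicate 1 was 0.54 log2 units above replicate 3, with a mean of 11.58 ± 0.31 (SD, n = 3). The probe set of Hsc70-4 carries the suffix that the array design gives to sequence shared between transcripts, so other HSP70 transcripts may add to its signal.

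The small heat shock gene l(2)efl, named as essential for life, is a relative of the vertebrate alpha-crystallins. It measured 10.97, 10.97 and 10.88 on replicates 1, 2 and 3, a mean of 10.94 ± 0.054 (SD, n = 3). Replicates 1 and 2 were identical to every deposited digit, so this SD may understate the error. It was the only gene of the 5 with several probe sets, and they disagreed. One of the others measured 2.41 and the other 2.39 on every array, both under the background level.

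**Figure D1:**
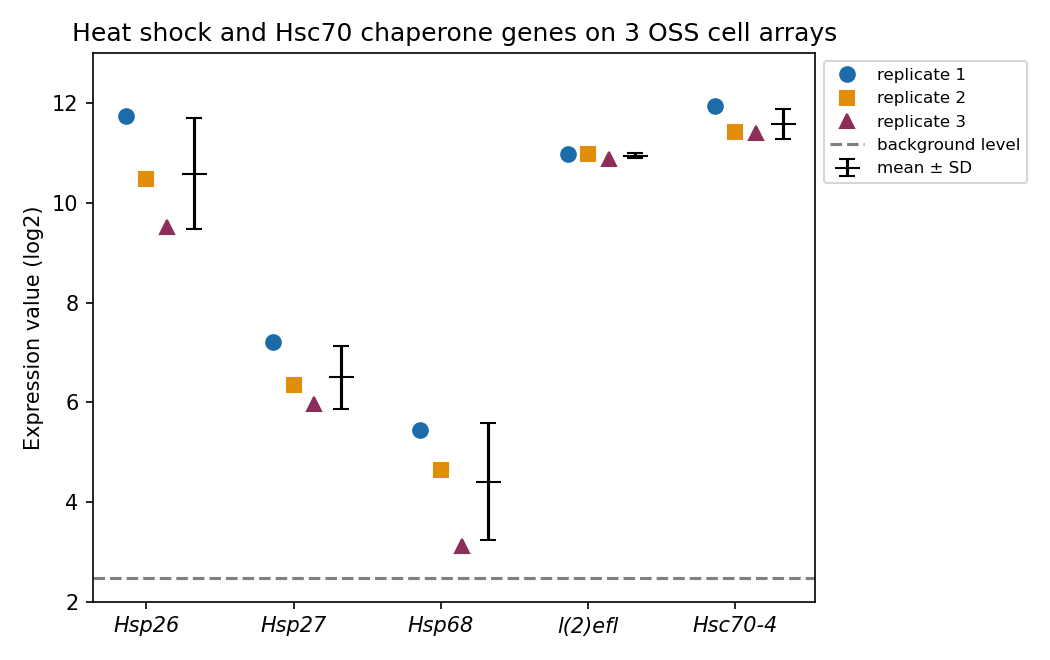
Values (log2) of the 5 chaperone genes on replicates 1, 2 and 3, with the mean ± SD over the 3 arrays (n = 3) beside them and the background level of 2.49 as a dashed line. Hsp26, Hsp27 and Hsp68 are spread over 1.23 to 2.32 log2 units with replicate 1 highest and replicate 3 lowest, while l(2)efl and Hsc70-4 span 0.094 and 0.54.

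By limma with Benjamini-Hochberg adjustment over all genes, 4 of the 5 genes were called above background, and the same number above the stricter level. Among 11870 genes outside the receptor list, 47.0% were above background and 25.5% above the stricter level. Because values of these arrays chose the members, these calls describe them and test nothing. Values of different probe sets also depend on probe affinity, so the levels of the 5 genes do not rank their transcripts.

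The spread of each gene was set beside genes of like level, within 1 log2 unit of its mean. Hsp26 had a larger SD than all 45 such genes, whose median SD was 0.32. Hsp68 had a larger SD than 2308 of 2313 genes (99.8%), whose median SD was 0.087, and Hsp27 a larger SD than 866 of 929 (93.2%). Hsc70-4 stood in the middle, above 16 of 32 genes (50%). The SD of l(2)efl exceeded that of 4 of 38 genes (10.5%); after quantile normalization of the arrays, the share was 62.2%. In the values as deposited, the 3 inducible genes had larger SDs than at least 93.2% of their neighbours in level. After quantile normalization the shares for Hsp26, Hsp27 and Hsp68 were 97.7%, 92.6% and 99.8%. The members were chosen with these values known, so their spread describes that choice and these 3 samples.

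**Figure D2:**
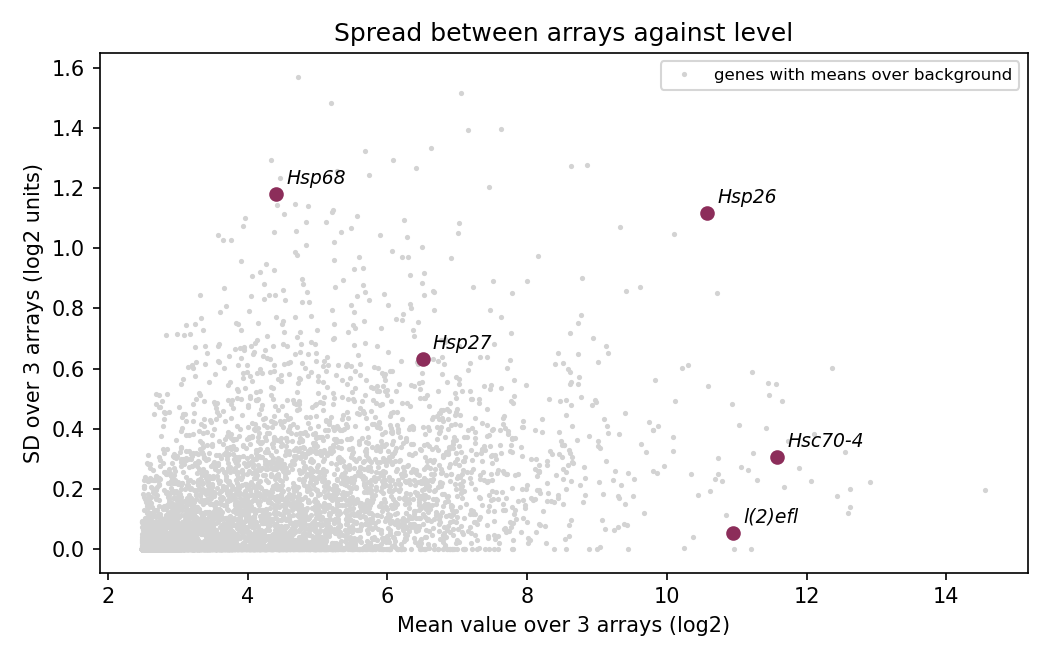
SD over the 3 arrays (log2 units, vertical) against mean value (log2, horizontal) for genes with means over background, with the 5 chaperone genes marked. Hsp26 and Hsp68 lie at the upper edge of the cloud at SDs of 1.12 and 1.18, and l(2)efl near its lower edge at 0.054.

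The array order of the inducible genes with a span over 1 log2 unit was uncommon in the table as a whole. Without a limit on span, replicate 1 was the highest array in 1406 genes with means over the stricter level. Replicate 3 was highest in 1160 and replicate 2 in 373. Genes identical on all arrays were left out, and other ties for the highest value were given to the lower-numbered replicate. These counts therefore favour replicate 1, and the arrays are not compared by them. Hsc70-4 had the same order as the inducible genes, over 0.54 log2 units. Of 3481 genes with means over the stricter level, 48 (1.38%) were highest on replicate 1 and lowest on replicate 3 with over 1 log2 unit between them. Hsp26, Hsp27 and Hsp68 were among them, which the choice of members fixes. The mean of Hsp68 passed the stricter level through replicates 1 and 2 alone. The opposite order, with replicate 3 highest and replicate 1 lowest, occurred in 15 genes. Wherever replicate 2 lay, replicate 1 exceeded replicate 3 by over 1 log2 unit in 73 genes, and replicate 3 exceeded replicate 1 in 80. Replicate 1 exceeded replicate 3 by more than in Hsp68 in 4 genes, by more than in Hsp26 in 6 and by more than in Hsp27 in 42.

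The Hsp70 genes, the strongly heat-inducible copies of this family, were given no probe set of their own by the annotation. The copies are nearly identical in sequence, and their probe sets were assigned to several genes. These values were looked at after those of the members were known, and the copies cannot be told apart. The probe set for Hsp70Aa and Hsp70Ab measured 7.60, 6.59 and 4.71 on replicates 1, 2 and 3. That for Hsp70Ba, Hsp70Bb, Hsp70Bbb and Hsp70Bc measured 5.57, 4.53 and 2.47. That for Hsp70Bb and Hsp70Bc alone measured 5.28, 4.18 and 2.45. All 3 were highest on replicate 1 and lowest on replicate 3, by 2.89 log2 units for Hsp70Aa and Hsp70Ab. Both Hsp70B probe sets lay under the background level on replicate 3, so the size of their difference is not given. Another probe set for the Hsp70B copies, and one shared by Hsp70Bb, Hsp70Bc and CG31343, measured 2.39 on every array.

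Hsp22, a small heat shock gene whose protein is mitochondrial, overlaps CG4456, and both probe sets for the pair were shared by them. One measured 7.59, 7.03 and 6.12 on replicates 1, 2 and 3, the order of Hsp26. The other measured 4.11, 3.15 and 3.55, with replicate 1 highest and replicate 2 lowest. Of 115 probe sets assigned to several genes and with means over the stricter level, 4 (3.48%) had replicate 1 highest and replicate 3 lowest by over 1 log2 unit. These were the 3 for Hsp70 genes and 1 for Hsp22 and CG4456. The Hsp70B probe sets pass this level through replicates 1 and 2 alone, so the count supports nothing about them.

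**Figure D3:**
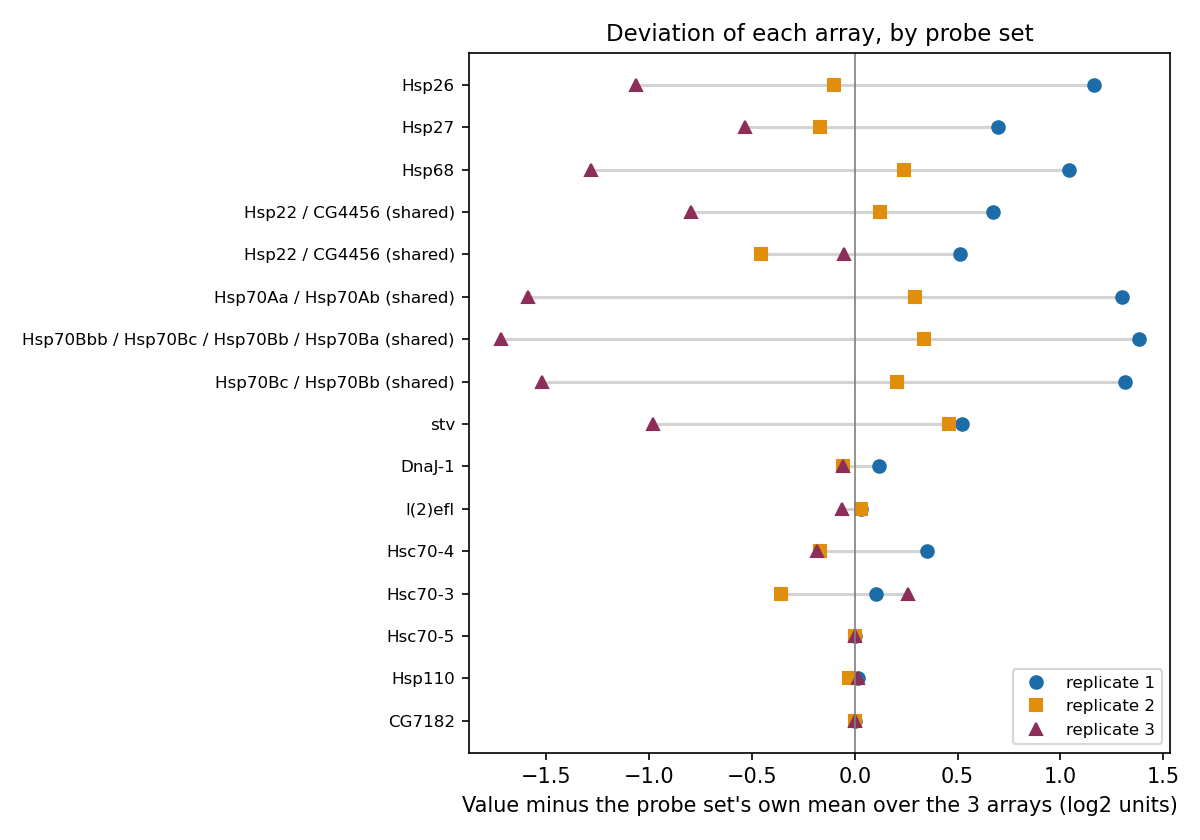
Value of each array minus the probe set's own mean over the 3 arrays (log2 units), for Hsp26, Hsp27, Hsp68, shared probe sets of Hsp22 and Hsp70 genes, and other chaperone genes from stv to CG7182. Replicate 1 is highest in each row from Hsp26 to stv, and replicate 3 lowest in each of them except one Hsp22 row, while the rows from DnaJ-1 down span 0.62 log2 units or less.

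Hsp26 and Hsp27 lie in a chromosomal cluster of small heat shock genes. By the RefSeq annotation its protein-coding genes follow in the order Hsp67Bc, CG4456, Hsp22, CG4461, Hsp26, Hsp67Ba, Hsp23 and Hsp27. CG4461, between Hsp22 and Hsp26, measured 2.44 on every array and was called below background. Hsp23, Hsp67Ba and Hsp67Bc were given no probe set of their own by the annotation and were not analysed here. The 3 nearest measured genes to each side of the cluster did not share the order of Hsp26. Of these, mRRF1 and Cpr67B lay near the lowest value of the table, where such an order could hardly show. Before the cluster, the mitochondrial genes mRRF1 and Fdx1 measured 2.61 ± 0.0062 and 4.01 ± 0.054, and CG4452 4.49 ± 0.17 (SD, n = 3). After it, CG4080 measured 4.58 ± 0.26, the cap-binding factor gene eIF4E1 7.03 ± 0.67 and Cpr67B, a cuticle protein gene, 2.41 on every array (SD, n = 3). The gene eIF4E1 ran the other way, with 6.63, 6.66 and 7.81 on replicates 1, 2 and 3.

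Among other small heat shock genes, CG7409 and CG13133 measured 2.39 on every array. Of the 6 measured genes of this list, 3 were above background, all of them members, and 3 below it. The shares over all genes were 47.0% above background and 49.6% below it.

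The HSP70 family list had 8 measured genes, of which 5 were above background, 2 below it and Hsp68 unresolved. The shares over all genes were 47.0% above background and 49.6% below it. Hsc70-3, the endoplasmic reticulum HSP70, measured 6.95, 6.48 and 7.10 on replicates 1, 2 and 3, with replicate 2 lowest. The mitochondrial HSP70 gene Hsc70-5 measured 7.52 on every array and CG7182 4.90 on every array. Hsp110, which exchanges the nucleotide of HSP70 proteins, measured 6.02, 5.98 and 6.02 on replicates 1, 2 and 3. Hsc70-1 and Hsc70-2 were below background at 2.40 ± 0.028 and 2.39 (SD, n = 3). Neither Hsc70-3 nor Hsp110 had the array order of Hsp26 with a span over 1 log2 unit. Hsc70-5 and CG7182 were identical on all arrays, and Hsc70-1 and Hsc70-2 lay near the lowest value. The array order of these genes is therefore not read.

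Of 36 J-domain genes 29 (80.6%) were above background, against 47.0% of all genes, with the highest values for Droj2 at 6.81 ± 0.037 and for DnaJ-1, a heat-inducible Hsp40 gene of flies, at 6.59 ± 0.10, and with CG12020 and CG43322 at 2.39 (SD, n = 3). DnaJ-1 measured 6.70, 6.53 and 6.53 on replicates 1, 2 and 3, a span of under 1 log2 unit. All 5 nucleotide exchange and BAG factor genes were above background, of which CG10973 and Sil1 had the lowest means at 3.85 ± 0.53 and 2.84 ± 0.097 (SD, n = 3). The BAG-domain gene stv, whose protein works with HSP70 and small heat shock proteins, measured 6.47, 6.40 and 4.97 on replicates 1, 2 and 3. Replicate 3 was low, and the other arrays were close to each other. Some co-chaperone genes, named after their values were seen, were highest on replicate 1 and lowest on replicate 3 over smaller spans, among them CG7556 with 5.05, 4.87 and 4.52, p23 with 7.68, 7.31 and 7.29, and Dpit47 with 4.55, 4.48 and 4.17 on replicates 1, 2 and 3.

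Of 14 measured HSP90 and co-chaperone genes 13 (92.9%) were above background, against 47.0% of all genes. Stip1, which links HSP70 and HSP90, measured 8.61 ± 0.55 and Gp93, the endoplasmic reticulum HSP90, 7.65 ± 0.13, while the myosin chaperone gene unc-45 measured 2.96 and the ubiquitin ligase gene STUB1 was unresolved at 2.54 ± 0.10 (SD, n = 3). Hsp83, the cytosolic HSP90 gene, was not analysed here. Of 6 HSP60 and HSP10 genes 2 were above, CG11267 at 9.82 ± 0.56 and the mitochondrial chaperonin gene Hsp60A at 8.15 ± 0.20; Hsp60C and CG9920 measured 2.39 (SD, n = 3).

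Hsf, which encodes the heat shock transcription factor, measured 6.08, 5.56 and 5.56 on replicates 1, 2 and 3. Replicates 2 and 3 were equal, and replicate 1 was 0.51 log2 units higher. Of 11 measured genes for regulators of heat shock transcription 10 were above background, against 47.0% of all genes. At the stricter level 7 were above, against 25.5% of all genes. The highest were CG5446 at 6.05 ± 0.39 and TH1, a subunit of the pausing factor NELF, at 5.92 ± 0.25 (SD, n = 3). The lowest were CycT at 2.58 and Parp1 at 2.39. Trl, which encodes the GAGA factor that binds heat shock promoters, measured 3.51 on every array.

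Genes of other stress responses were counted beside the chaperones, against the same 47.0% of all genes above background. Of 18 endoplasmic reticulum stress genes 17 were above background, with crc, the fly ATF4 gene, at 8.42 ± 0.24, ERp60 at 8.17 ± 0.20, Ire1 at 2.53 and Pdi at 2.39 (SD, n = 3). Of 17 oxidative and metal stress genes 12 were above, with the glutathione transferase gene GstD1 at 9.13 ± 0.68, Trxr1 at 8.17 ± 0.083, and the metallothionein genes MtnC and MtnD at 2.39 (SD, n = 3). Small heat shock genes also respond to the steroid ecdysone in flies. Of 13 ecdysone response genes 8 were above, with Eip63E at 7.52 ± 0.40, the receptor subunit gene usp at 5.15 ± 0.057, and Hr4 and Eip93F at 2.39 (SD, n = 3). The receptor gene EcR was unresolved, with 2.79, 2.51 and 2.51 on replicates 1, 2 and 3.

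In all 10 lists together, 100 of 130 measured genes (76.9%) were above background, 27 below it and 3 unresolved, against 47.0% above and 49.6% below over all genes. The lists were chosen with earlier results known, so nothing particular to them is read from this. With the members left out, 79 list genes had means over the stricter level. Of these, 1 gene, stv, was highest on replicate 1 and lowest on replicate 3 with over 1 log2 unit between them, a share of 1.27% that is near the 1.38% over all genes.

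**Figure D4:**
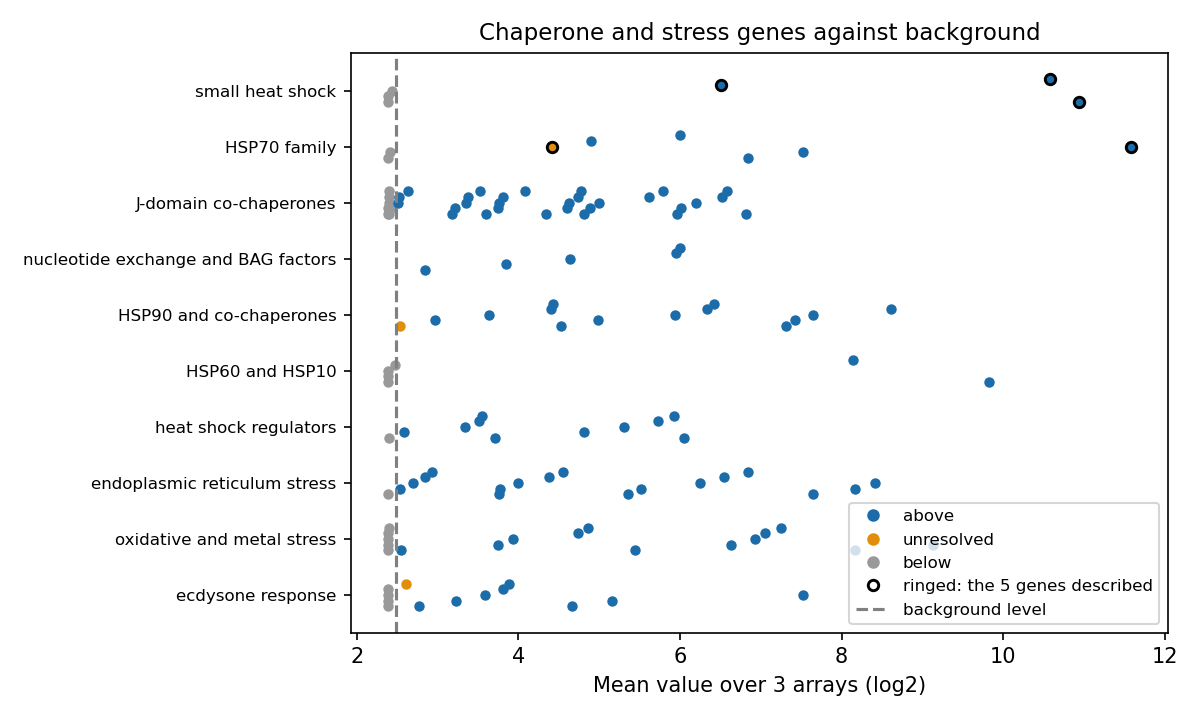
Mean value over the 3 arrays (log2) of each measured gene of the 10 chaperone and stress lists, coloured by its call against the background level (dashed line at 2.49), with the 5 described genes ringed. The points are offset vertically for legibility; 100 of 130 genes are called above background, and the genes called below it lie at 2.39 to 2.47.

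The array pattern of Hsp26 was compared with those of 3480 other genes over the stricter level, by the root mean square difference of their deviations from their own means over the 3 arrays. The nearest were Irc, an immune-regulated catalase gene, at 0.096 log2 units, CG6330 at 0.12, Vago, a secreted antiviral factor gene, at 0.22, the arginine kinase gene Argk1 at 0.22 and Drat at 0.24. Irc measured 6.48, 5.13 and 4.41 and Vago 10.28, 9.39 and 8.56 on replicates 1, 2 and 3. Hsp68 was the next nearest, at 0.24, and Hsp27 stood at rank 24, at 0.41. The members were chosen with these values known, so their ranks among each other describe that choice. Hsc70-4 and l(2)efl stood at ranks 237 and 974.

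For Hsp68 the nearest genes were CtBP, a transcriptional corepressor gene, at 0.13, CG6330 at 0.15, sty, an inhibitor of receptor tyrosine kinase signalling, at 0.17, Hsp26 at 0.24 and the kinase scaffold gene Cka at 0.26. On replicate 3 both Hsp68 and Cka lay under the stricter level. Their means passed it through replicates 1 and 2 alone, so nothing is read from their closeness. Shared probe sets were set against Hsp68 in the same way. Those for Hsp70Bb with Hsp70Bc and for Hsp70Aa with Hsp70Ab differed from Hsp68 by 0.21 and 0.23, with 3 named genes closer to each. The other Hsp70B probe set differed from it by 0.32, with 11 named genes closer, and the Hsp22 and CG4456 probe sets by 0.36 and 0.87, with 14 and 581 closer. Both Hsp70B probe sets lay under the background level on replicate 3 and passed the stricter level through replicates 1 and 2 alone. Nothing is therefore read from their distances. The gene stv stood at rank 15, at 0.37. With 3 arrays, genes of any function can fall near each other by this measure. The ovarian somatic gene tj also had this array order, with 7.45, 6.96 and 6.09 on replicates 1, 2 and 3, whereas piwi measured 6.44, 5.98 and 6.98.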

How the data were processed

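The deposited table held log2 expression values per probe set for 3 arrays of 1 group; the log base was taken from their range, and how background was corrected, arrays scaled and probes summarised is not given in the sources used here. Per the labels, scanner files entered custom scripts of the authors. The number of arrays limits the precision. Values were used as deposited, and 0 columns were left unused.

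Genes were named through the platform's annotation (13647 probe sets with 1 gene, 402 with several, 4720 unlisted and 183 controls). A gene with several probe sets took that with the highest mean. Of 11982 genes, 11899 symbols matched RefSeq's Release 6 plus ISO1 MT table. No coordinates are given, because the build behind the files was not given.

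Each gene was tested against the background level by an intercept-only fit (lmFit, then eBayes) in limma 3.58.1, run under R 4.3.3, one-sided in each direction with Benjamini-Hochberg adjustment over all genes and called at an adjusted p under 0.05. SDs of identical values were set to 0. The test was tested on simulated data. Since most SDs were 0, which limma moderates poorly, an alternative took the spread from the other genes.

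Members, lists and tests were chosen with earlier results of these data known. Genes named were the members, all measured small heat shock and HSP70 genes, the 2 highest and 2 lowest of each other list, and the 5 genes nearest in array pattern to Hsp26 and to Hsp68; others were chosen after their values were seen. List names that were older symbols were updated where 1 gene carried them; CG5393, listed by mistake, was dropped. Alternatives were other background levels, scalings, probe set rules and leaving out each array.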

Additional observations from a re-analysis of the deposited data

Results flagged for a closer look

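Signal with the array pattern of the inducible genes was also found in probe sets to which the annotation gives no gene. Of 469 such probe sets with means over the stricter level, 21 (4.48%) were highest on replicate 1 and lowest on replicate 3 by over 1 log2 unit. The share of named genes was 1.38%, but it counts genes, each by its probe set with the highest mean. The 4.48% counts every probe set, so the shares are unlike in unit. Their difference was not tested. Of the 469, 8 came as close to Hsp26 or Hsp68 as the fifth nearest named gene, at root mean square differences of up to 0.24 and 0.26 log2 units. Their means were 9.68 for 1641055_at, 5.81 for 1628814_s_at, 9.91 for 1623222_s_at and 7.36 for 1627398_a_at. The others averaged 7.41 for 1635666_at, 5.09 for 1635715_at, 5.65 for 1623281_s_at and 5.14 for 1638308_s_at. The closest to both, 1641055_at, measured 10.85, 9.71 and 8.46 on replicates 1, 2 and 3, and its gene is not named here.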

How the results depend on the processing

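The 40 results were recomputed under 16 alternatives. Of the 304 values obtained, 285 counted as kept, by side of the threshold and sign or by size of change. Counts that were kept in this sense could still shift. Genes with the array order of Hsp26 over 1 log2 unit rose from 48 to 63 after 75th percentile scaling. Genes above background fell from 5582 to 4440 with the highest receptor as level, and J-domain genes from 29 to 20 at the stricter level. Scaling alternatives for the count of genes with the array order of Hsp26, and for stv and the shared probe sets, were chosen after the data were seen. At the stricter level 3028 genes were above, 25.5% of the 11870 outside the receptor list. There, the exchange factor, endoplasmic reticulum and ecdysone lists had 3, 11 and 5 genes above, of 5, 18 and 13 measured. Without probe sets of shared sequence, fewer genes were measured, and 4163 genes in the whole table were above background. The HSP70, exchange factor, HSP60, endoplasmic reticulum, oxidative and ecdysone lists then had 2, 3, 1, 10, 7 and 3 above. The numbers measured per list are not given for this setting, so the lower counts do not show a loss of signal. The exchange factor list had 3 with the highest receptor as level and 3 to 5 without 1 array. Hsp68 was called above background without replicate 3 (limma, adjusted p = 0.017; 0.017 to 0.19 over the arrays left out and 0.017 to 0.42 over all alternatives). Averaging its probe sets put l(2)efl at 5.25, with 0.031 log2 units between replicates 1 and 3. Quantile normalization put it at 11.01, turned that difference to -0.075 and its SD percentile to 62.2, and that of Hsc70-4 to 75; the cause was not tested. Replicate 1 exceeded replicate 3 for Hsp26, Hsp27 and Hsp68 under each scaling, by 2.05 to 2.26, 1.16 to 1.26 and 2.29 to 2.35 log2 units. No paired analysis was possible because the series has 1 group.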

Other observations

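Among the 48 genes that were highest on replicate 1 and lowest on replicate 3 by over 1 log2 unit, 44 belonged to none of the chaperone and stress lists. The genes named next were chosen after their values were seen, and no theme is drawn from them. The inhibitor of apoptosis gene Diap2, which acts in immune signalling, measured 5.61, 4.92 and 4.50 on replicates 1, 2 and 3. The virus-induced gene vir-1 measured 6.56, 5.91 and 5.41. The desaturase gene Desat1 measured 8.59, 7.50 and 7.24 and AcCoAS, an acetyl-CoA synthetase gene, 7.50, 6.11 and 5.96 on replicates 1, 2 and 3. Drat measured 9.05, 7.60 and 6.25, a larger difference between replicates 1 and 3 than in Hsp26 or Hsp68. No enrichment of any function was tested.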
